A study of Mus musculus with 2 samples.

Results

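The mRNAs of the proteins of the large (60S) ribosomal subunit were followed in NIH3T3 cells, a mouse fibroblast line, without treatment and after 3 h in 10 µM thapsigargin, which blocks the SERCA calcium pump. Members were the coding reference transcripts on the array that carried the name of a large subunit protein (Rpl followed by a number, or Rplp0 to Rplp2), without Rpl3l and Rpl10l. This gave 47 of 18743 coding mRNAs with a usable spot, and all 47 were among the 10033 whose signal passed the filter on both arrays. One of them, Rpl39l, is a paralogue of Rpl39 whose name matches the pattern. Cycloheximide was given shortly before lysis in both conditions, and lysates were separated on a sucrose gradient into polysome-bound RNA (P, labelled with Cy3) and pooled free and monosome RNA (FM, labelled with Cy5). Each condition was 1 array of RNA pooled from 3 preparations, so differences between the conditions lack a replicate check and no test was made. Both arrays lay on 1 slide and were read in 1 scan.

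The large subunit carries the peptidyl transferase centre, the exit tunnel for the nascent chain and the stalk that recruits the elongation factors. Most of its protein mRNAs begin with a short run of pyrimidines at the cap, the 5′ terminal oligopyrimidine (TOP) tract, through which they can be moved between polysomes and untranslated particles as a group when cell growth changes. Thapsigargin empties the calcium store of the endoplasmic reticulum, which activates the kinase Perk, phosphorylation of eIF2 and a general fall in initiation.

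Translation efficiency was given as log2 P/FM, the P signal over the FM signal on the log2 scale, and A, a measure of abundance, averaged the log2 values of P and FM. The filter kept mRNAs with A above 4.5 on both arrays. For the 3438 mRNAs with several probes, the standard deviation (SD) between probes had a median of 0.29 for control log2 P/FM, 0.28 for treated cells and 0.32 for the change. These SDs take the place of an error and cover the array alone, not the spread between preparations. Of the fibroblast markers, 9 of 9 passed the filter, against 0 of 4 epithelial, 0 of 2 endothelial and 1 of 3 leukocyte markers, the last being Cd3e at A of 6.06 and 5.93. Col3a1 and Pdgfra passed the filter but were not well above background in both channels on both arrays, while Cd3e was. The stress genes Hspa5, Ddit3 and Herpud1 were higher in A by 1.96, 3.71 and 4.19 in treated cells.

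Start sites came from a RefSeq table on GRCm38.p6 that held 35 of the 47 members. A run of C and T of 5 bases or longer, beginning with C and covering the annotated first base or starting within 5 bases of it, and taken at the start with the longest run where a gene had several, was present in 16 of these 35 (45.7%). The same rule found a run in 20.1% of 27025 genes in the table and in 22.3% of the 7881 that passed the filter on the arrays. The letters CTTTC stood between 30 bases before and 50 bases after the start in 65.7% of the members and 11.8% of all genes, and the reverse complement GAAAG in 8.57% and 11.4%. For CTTCC the shares were 31.4% and 18.5% on the gene strand, and for CTTTTC 14.3% and 3.31%, and matches of these motifs could share bases. Windows of 30 bases, 10 before the start and 20 from it, are shown for members on which the values turn, with the run in capitals where one was called.
Rpl12, low in both conditions (chr2:32961702-32961731, plus strand): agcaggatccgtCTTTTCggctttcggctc
Rpl39, low in both conditions (chrX:37085203-37085232, minus strand): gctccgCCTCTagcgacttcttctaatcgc
Rplp2, the stalk member that differed from the rest (chr7:141447641-141447670, plus strand): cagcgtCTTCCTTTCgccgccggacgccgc
Rpl38 (chr11:114668570-114668599, plus strand): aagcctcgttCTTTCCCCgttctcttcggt
Rpl35, among the most negative changes (chr2:39005112-39005141, minus strand): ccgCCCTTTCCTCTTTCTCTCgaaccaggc
Rpl14, near the top in control cells (chr9:120571507-120571536, plus strand): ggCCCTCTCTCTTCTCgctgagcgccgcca
Rpl41, the least changed, no run called (chr10:128549149-128549178, minus strand): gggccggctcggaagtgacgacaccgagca
Rplp0, low in both conditions, no run called (chr5:115559457-115559486, plus strand): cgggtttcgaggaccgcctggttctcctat
Rpl27, the highest in control cells, no run called (chr11:101442235-101442264, plus strand): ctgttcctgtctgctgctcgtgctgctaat
A window without a run says only that these letters do not lie at the annotated base. In control cells the median log2 P/FM was -1.75 for the 16 members with a run and -1.55 for the other members in the table, and their median changes were -2.23 and -2.05. Control values overlapped widely, from -5.32 to -0.36 with a run and from -5.52 to -0.15 without one.

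In growing cells more of the signal of large subunit protein mRNAs lay outside polysomes than in them. All 47 had a log2 P/FM below 0, where 36.5% of all coding mRNAs lay, and 27 were at or below -1.5, where 4.82% lay. Their median was -1.66 against 0.34 for all coding mRNAs, so that P made up 24.0% of the summed signal of a median member and 55.8% of that of a median mRNA. Members were also among the brightest mRNAs: 42 of 47 lay in the upper 5% of A in control cells, and they were 27 of the 78 mRNAs with A above 15. Other bright mRNAs had higher values. Among 167 coding mRNAs with A above 13 on both arrays that encode no cytoplasmic ribosomal protein, the median log2 P/FM was 0.83 and 11.4% were at or below -1.5, against 21 of the 37 members in that range.

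**Figure D1:**
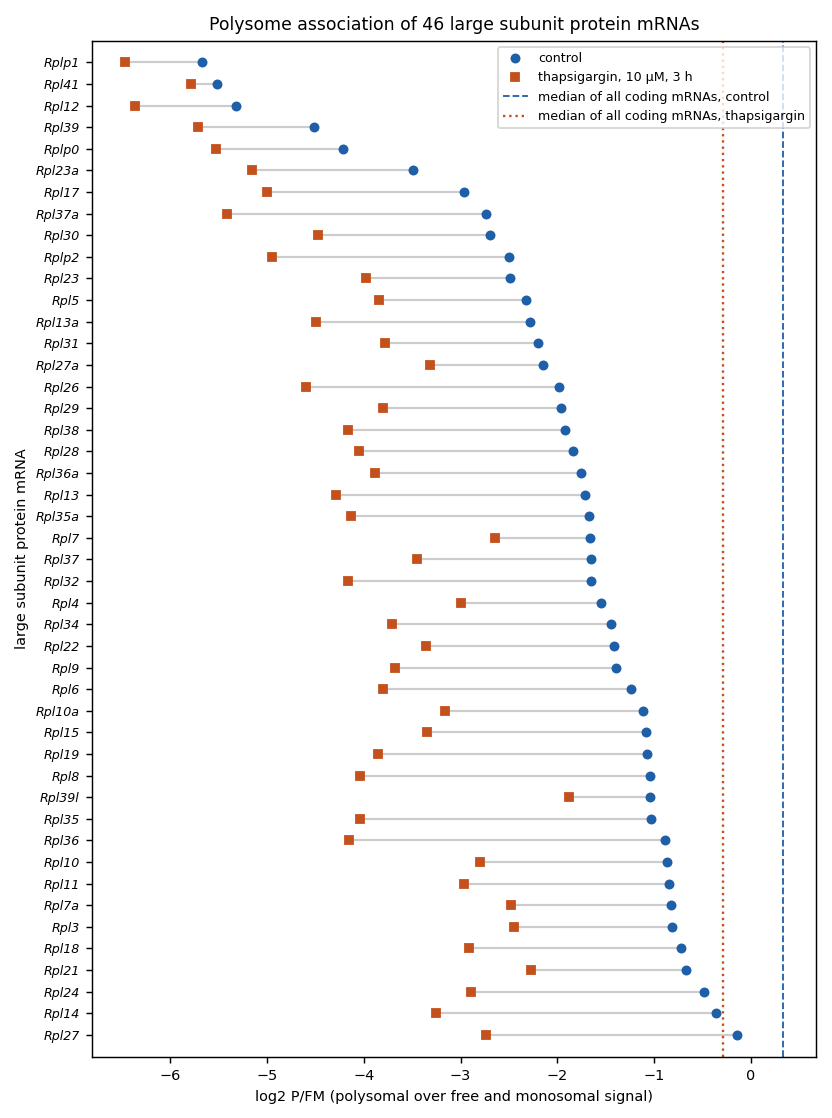
log2 P/FM of 46 of the 47 large subunit protein mRNAs on the single control array (blue circles) and the single thapsigargin array (orange squares), sorted by the control value, with dashed and dotted lines at the medians of all coding mRNAs (0.34 and -0.29). Each of them lay below 0 on both arrays and lower on the thapsigargin array, and the change was -0.27 for Rpl41 and -3.27 for Rpl36; with the thapsigargin array shifted to the spike-in probes 34 of all 47 members would lie higher.

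Members spanned 5.52 on the log2 scale in control cells, far more than the SD between probes. At the low end stood Rplp1 (-5.67), Rpl41 (-5.52), Rpl12 (-5.32), Rpl39 (-4.52) and Rplp0 (-4.22), which ranked 3, 4, 6, 12 and 16 from the bottom among the 10033 mRNAs. At the high end stood Rpl27 (-0.15), Rpl14 (-0.36), Rpl24 (-0.48), Rpl21 (-0.67) and Rpl18 (-0.72). The place of Rpl21 is uncertain, since its value is the mean of 2 probes that read 0.06 and -1.40. The 20 lowest coding mRNAs in control cells held 5 large subunit and 6 small subunit proteins.

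After thapsigargin all 47 members were at or below -1.5, where 12.2% of coding mRNAs lay, and below 0, where 62.6% lay. Their median was -3.86 against -0.29 for all coding mRNAs, and the P share of a median member was 6.45%. The same 5 mRNAs made up the low end, with Rplp1 at -6.46, Rpl12 at -6.37, Rpl41 at -5.79, Rpl39 at -5.72 and Rplp0 at -5.53. The high end was Rpl39l (-1.88), Rpl21 (-2.27), Rpl3 (-2.45), Rpl7a (-2.48) and Rpl7 (-2.64), of which Rpl21 alone was also among the 5 highest in control cells. Across the 47 members the control and treated values had a Pearson r of 0.87 and a Spearman rho of 0.83, as a description over mRNAs read by the same probes on both arrays. Over all coding mRNAs these were 0.29 and 0.15. All coding mRNAs were far dimmer, with a median A of 7.40 in control cells against 15.15 for members. The correlation over other mRNAs of like brightness was not computed. Of the 167 other bright mRNAs, 43.1% lay at or below -1.5 in treated cells.

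The change in log2 P/FM was negative for each of the 47 members on the unnormalized scale, with a median of -2.05 against -0.71 for all coding mRNAs. In the terms of the study, 45 members were stress sensitive, with a change of -0.8 or lower, as were 47.0% of coding mRNAs. Relative to the median of all coding mRNAs the median member changed by -1.33, and 46 of 47 members lay below that median. The size and the direction of the change rest on the scale. The 10 spike-in probes changed by -2.44 (range -2.67 to -2.16), and with the treated array shifted by that amount the median member changed by 0.40 and the median mRNA by 1.73, which leaves the difference between them as it was. How the spike-ins were added to the fractions is not given in the sources used here, and what that shift corrects was not tested. Per the labels equal volumes of both fractions were labelled. The study states that the RNA proportions of the fractions were kept for labelling, with more in P in control cells and more in FM under stress. The unnormalized scale therefore carries the share of RNA in each fraction. After loess normalization within each array, which removes any trend of log2 P/FM with A, the median member changed by -0.19 and the median mRNA by -0.15, and 26 of 47 members lay below the latter. On that scale 4 of 47 members changed by -0.8 or lower, against 27.1% of coding mRNAs.

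The change was also set against that of mRNAs of like brightness. Of the 167 other mRNAs with A above 13, 85.0% changed by -0.8 or lower, with a median of -1.83, against 35 of 37 members with a median of -2.21. Median changes were -2.46 and -1.25 between A of 16 and 18, where 5 members and 10 others lay, and -2.20 and -1.12 between A of 15 and 16, with 18 and 23. They were -2.12 and -1.58 between A of 14 and 15, with 14 and 48. Members thus had the more negative median in each of these ranges. The others between A of 15 and 18 included histone mRNAs such as Hist1h4f (-1.23), Hist1h2aa (-0.86) and Hist1h2ab (-0.52). They also included Lgals1 (-4.56), Cox6a1 (-3.19), Nme2 (-3.14) and Lars2 (-3.07). Medians without histone mRNAs were not computed. Between A of 11 and 13, with 5 members and 699 others, the order was the other way, at -1.48 and -1.72. Between A of 9 and 11, with 4 and 1968, the medians were -1.69 and -1.26. Across the 47 members mean A and the change gave r = -0.28 and rho = -0.38, as a description over mRNAs read on the same arrays.

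**Figure D2:**
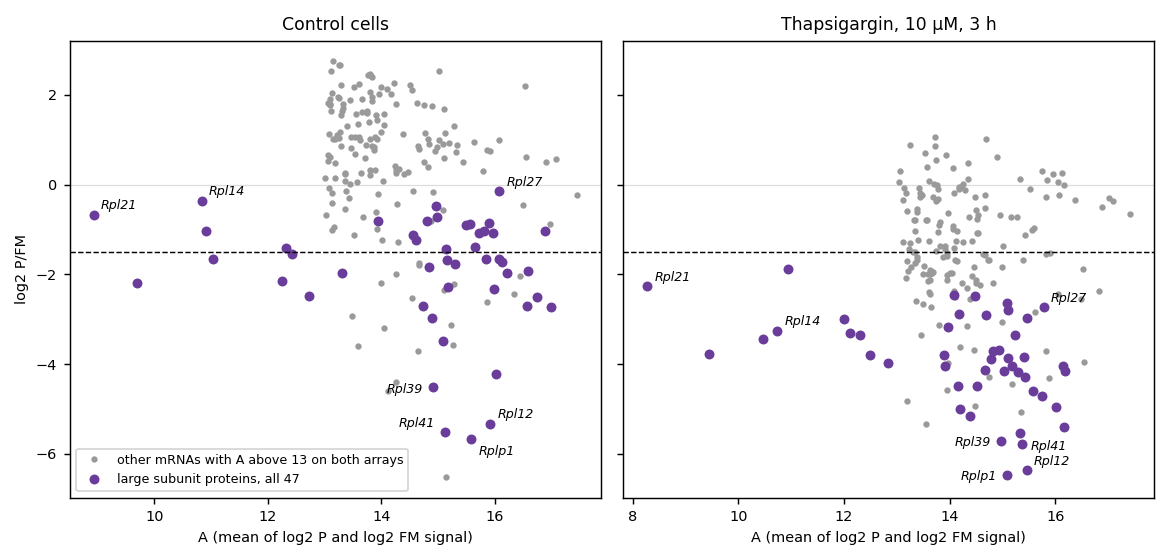
log2 P/FM against A on the control array (left) and the thapsigargin array (right) for the 47 large subunit protein mRNAs (purple) and the 167 other coding mRNAs with A above 13 on both arrays that encode no cytoplasmic ribosomal protein (grey); the dashed line is at -1.5. In control cells 27 of 47 members lay at or below the line and in treated cells all 47 did, against 11.4% and 43.1% of the grey points.

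The 5 members with the most negative change were Rpl36 (-3.27), Rpl35 (-3.002), Rpl8 (-2.997), Rpl14 (-2.89) and Rpl19 (-2.79). Rpl36 was read by a pair of probes that gave -3.24 and -3.29. Its P signal went from 33672 to 7907 and its FM signal from 62333 to 140828. The 5 least lowered were Rpl41 (-0.27), Rplp1 (-0.79), Rpl39l (-0.84), Rpl7 (-0.98) and Rpl12 (-1.04). Rpl41 and Rplp1 were the members outside the sensitive class, Rplp1 by a margin far below the SD between probes, and with Rpl12 they were the lowest members in control cells. Across members the change and the control value, which share the control array, gave r = -0.60 and rho = -0.43 as a description, and the SD over members was 1.32 in control and 1.06 in treated cells.

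Of the 4 stalk proteins, 3 were among the 5 lowest members on both arrays. Rplp0, the protein that anchors the stalk, had P and FM signals of 15400 and 286729 in control cells and of 6049 and 279949 after thapsigargin, and its log2 P/FM went from -4.22 ± 0.26 (SD of 2 probes) to -5.53. Rplp1, an acidic stalk protein that binds elongation factors, had P and FM signals of 6866 and 349528, then of 3704 and 327125. Rplp2, the acidic partner of Rplp1, differed from both: its P signal was 46121 against an FM signal of 260333 in control cells, a log2 P/FM of -2.50, and after thapsigargin the signals were 11915 and 369086 and the ratio -4.95. Rplp1 and Rplp2 pair with each other as proteins. Their mRNAs differed in log2 P/FM by 3.17 in control cells and by 1.51 in treated cells. Rpl12, at the base of the stalk, resembled Rplp1, with 9757 and 391008 in control cells and 4959 and 408968 in treated cells. Its single probe is placed by the array file on chromosome 10 of mm9 while RefSeq has the gene on chromosome 2, so its signal may include a copy of the gene.

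Rpl5 and Rpl11 join 5S ribosomal RNA in a particle that is built into the subunit and that also binds Mdm2, the ubiquitin ligase of p53. Rpl5 went from -2.33 to -3.85 and Rpl11 from -0.85 to -2.96. Rpl5 was lower on both arrays, and the gap between them narrowed from 1.48 to 0.88.

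Proteins at the peptidyl transferase centre and the tRNA sites had intermediate values, from -1.76 to -0.81 in control cells. Rpl8, whose extension reaches towards the catalytic centre, had the highest P signal of all members in control cells, 84196, beside an FM signal of 173139. After thapsigargin its signals were 17959 and 294913, and log2 P/FM went from -1.04 to -4.04. Rpl3, which also reaches towards the centre, changed least of this group, from -0.81 to -2.45. Rpl10, added late in assembly near the P-site tRNA, went from -0.87 to -2.80, Rpl10a of the L1 stalk from -1.12 to -3.16, and Rpl36a, beside the E site, from -1.76 to -3.89.

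The 9 proteins of the exit tunnel and its rim ranged from -4.52 to -1.04 in control cells and from -5.72 to -2.99 in treated cells. Rpl39, a very short protein in the tunnel wall, was the lowest on both arrays, and its FM signal went from 147836 to 233793 while P went from 6443 to 4450. Rpl4, whose loop lines the tunnel, went from -1.55 to -2.99. Rpl35, at the rim, had the largest change of the group, from -1.04 to -4.04, and Rpl19 went from -1.07 to -3.86. Rpl23a, the docking site of factors that receive the nascent chain, stood at -3.49 and -5.15, and Rpl17 at -2.96 and -5.004. Rpl26 went from -1.98 to -4.60, and Rpl22 and Rpl31 are taken up with their probes.

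Among proteins that contact the small subunit, Rpl41, the shortest protein of the ribosome, was the one member whose P signal was not lower. It went from 5272 to 5659 while FM went from 241611 to 312192. Rpl24 lay near the other end of the range, at -0.48 in control cells, and went to -2.89, with probe values for the change that differed by an SD of 0.14. Rpl30 went from -2.70 to -4.48 and Rpl23 from -2.49 to -3.98.

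Among members with named functions away from the ribosome, Rpl13a, which can join a complex that silences inflammatory mRNAs, went from -2.28 to -4.50. Rpl38, needed for translation of certain Hox mRNAs, went from -1.92 to -4.16. These changes, -2.21 and -2.25, lay close to the median of the members.

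The other 21 members ranged from -2.73 (Rpl37a) to -0.15 (Rpl27) in control cells and from -5.41 (Rpl37a) to -1.88 (Rpl39l) in treated cells, with changes from -3.27 to -0.84. Rpl27 had a P signal of 65473 and an FM signal of 72444 in control cells, the most even of all members, and 21721 and 144917 after thapsigargin. Rpl37a was the brightest member in control cells, with A of 16.98, and its P signal went from 50184 to 11240. Rpl7 went from -1.66 ± 0.61 (SD of 3 probes) to -2.64 ± 0.69, with probe values for the change that differed by an SD of 0.09. Its FM signal, unlike that of most members, was lower, at 86443 against 103949. Rpl14 and Rpl18, near the top in control cells, stood at -3.25 and -2.92 in treated cells.

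The remaining members of this set, mostly proteins that hold ribosomal RNA helices in place, kept between these limits. Rpl27a went from -2.15 to -3.31, Rpl29 from -1.96 to -3.80 and Rpl28 from -1.84 to -4.05. Rpl13 went from -1.72 to -4.29, Rpl35a from -1.67 to -4.13, Rpl37 from -1.65 to -3.45 and Rpl32 from -1.65 to -4.17. Of the mRNAs from Rpl27a to Rpl32, Rpl27a had the smallest change, -1.17, and Rpl13 the largest, -2.57. Rpl34 went from -1.44 to -3.71, Rpl9 from -1.39 to -3.68, Rpl6 from -1.24 to -3.80 and Rpl15 from -1.08 to -3.34. Their changes lay between -2.56 and -2.26, a narrow range beside that of the other members. Rpl7a stood at -0.82 and -2.48 and Rpl36 at -0.89 and -4.15, so that a pair of mRNAs level in control cells was separated by more than the SD between probes in treated cells.

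Both fractions moved in most members. On the unnormalized scale P was lower in 46 of 47, against 49.3% of coding mRNAs, and lower by 1 or more on the log2 scale in 39 of 47, which 12.8% of coding mRNAs were. The median change of P was -1.53 for members and 0.02 for all coding mRNAs. FM was higher in 44 of 47 members, as it was in 86.6% of coding mRNAs and 94.0% of the other bright ones. Its median change was 0.51 for members and 0.72 for all. A was lower in 42 of 47 members, against 23.2% of all coding mRNAs and 34.7% of the other bright ones, with a median of -0.51 against 0.37. The exceptions were Rpl41 (0.24), Rpl3 (0.15), Rpl23 (0.09), Rpl39 (0.06) and Rpl39l (0.03). A weighs both fractions equally on the log2 scale, and the plain sum of both signals was lower in 8 of 47 members and in 22.9% of all mRNAs. The spike-in probes moved by -1.51 in P and by 0.96 in FM. The median member thus lay level with them in P and below them in FM, while single members ranged from -2.26 to 0.10 in P. In FM, Rpl14 (1.35), Rpl36 (1.18), Rpl27 (1.0003) and Rpl3 (0.97) lay above the median of the spike-in probes. The spike-in probes ranged from 0.69 to 1.13 in FM, so Rpl27 and Rpl3 lay within their range.

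**Figure D3:**
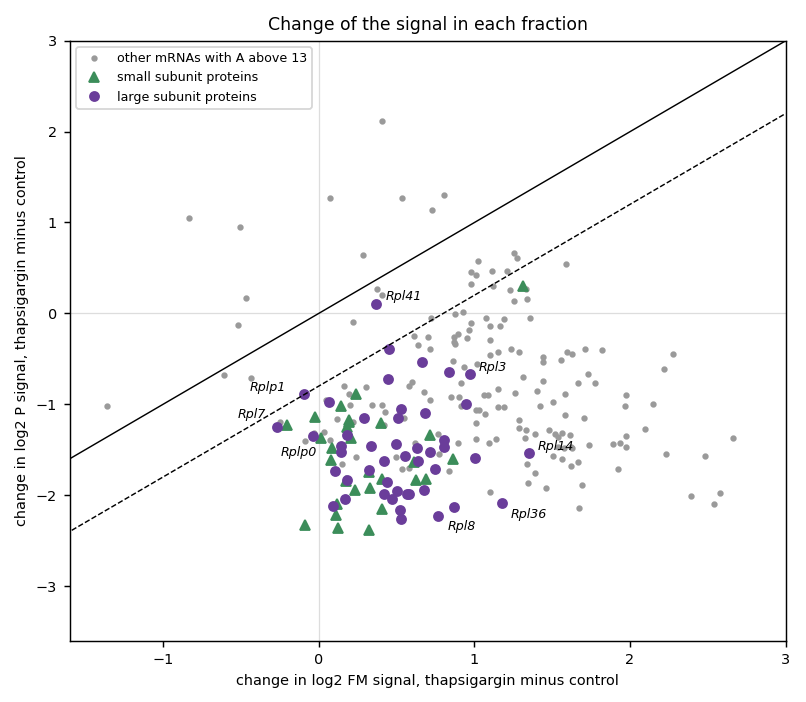
Change in the log2 P signal against the change in the log2 FM signal, thapsigargin minus control, without normalization, for large subunit proteins (purple circles, 47), small subunit proteins (green triangles, 29) and other coding mRNAs with A above 13 on both arrays (grey, 167); the solid line marks equal change and the dashed line a change in log2 P/FM of -0.8. P was lower in 46 of 47 large subunit mRNAs and FM higher in 44, and Rpl41 is the member whose P signal was not lower; against spike-in probes, at -1.51 in P and 0.96 in FM, the median member was level in P.

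Of the 47 members, 28 were read by 1 probe and 19 by several. The change was negative for each of the 71 probes on the unnormalized scale, and 68 of them gave -0.8 or lower. In 9 members a pair of probes differed by more than 2 in A, and in 8 of them the dimmer probe gave the less negative change. Over all coding mRNAs with such pairs this share was 54.6%. The dimmer probe lay downstream on the gene strand in 7 of the 9, against 27.4% of such pairs in general, and it had the higher log2 P/FM in treated cells in 7 of 9, against 57.9%.

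The first 30 bases of both probes are shown for the 3 members with the largest gap, as the array file gives them, with mm9 positions of the whole probe.
Rpl22, brighter (chr4:151704158-151704217, plus strand): aacctcggcggaggagtcgtgaccatcgaa
Rpl22, dimmer (chr4:151708012-151708071, plus strand): gctgtaaacaacattaaccctgggttgatt
Rpl21, brighter (chr5:147644677-147644736, plus strand): ggcagccctcgggccttgtaagagcgcgca
Rpl21, dimmer (chr5:147648267-147648326, plus strand): gagggttctctagaagtactacctgtctta
Rpl23, brighter (chr11:97639635-97642649, minus strand): ggtacatccagcagtggtaattcgacaacg
Rpl23, dimmer (chr11:97638917-97638976, minus strand): acaaaacacgcattcttttcaggtctttgc
For Rpl22, a protein of the subunit surface that also binds other RNAs, both probes gave similar control values (-1.51 and -1.31). In treated cells they read -4.34 and -2.37, so the change was -2.83 at the brighter and -1.06 at the dimmer probe, 3854 bases downstream. Rpl23 followed the same pattern, with changes of -1.97 and -0.999, and its brighter probe has an interval longer than the 60 bases of the probe. For Rpl21 the probes already differed in control cells, at 0.06 and -1.40, and changed by -2.26 and -0.94. Rpl31 (-1.97 and -1.19), Rpl37 (-2.06 and -1.52) and Rpl39l (-1.05 and -0.64) showed smaller gaps of the same sign, while Rpl29 (-1.84 and -1.94), Rpl7 (-1.08 and -0.92) and Rpl7a (-1.84 and -1.80) showed none beyond the SD between probes. The dimmer Rpl37 probe was not well above background in both channels on both arrays, and no other member had such a probe. In the mean over probes a dim probe counts as much as a bright one, and with the brightest probe alone the median change of members was -2.20.

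**Figure D4:**
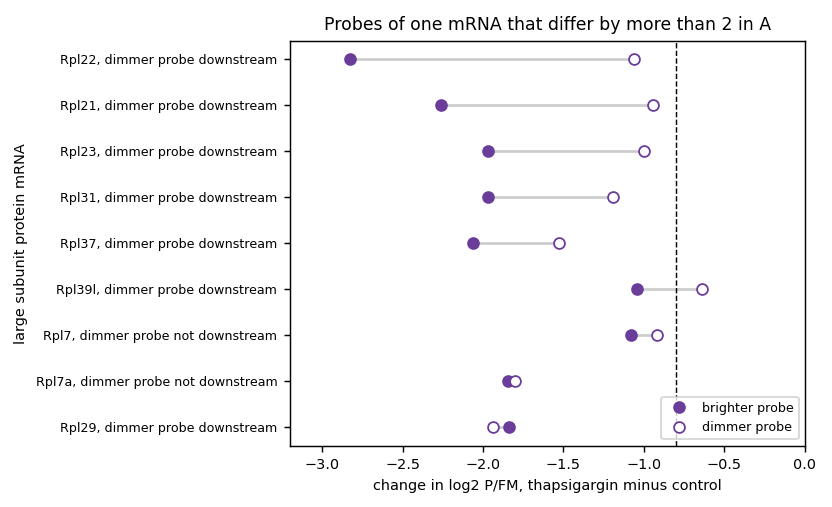
Change in log2 P/FM, thapsigargin minus control and without normalization, at the brighter (filled) and the dimmer probe (open) of the 9 large subunit mRNAs whose probes differ by more than 2 in A; the dashed line is at -0.8. The open symbol lies to the right in 8 of 9, by 1.77 for Rpl22, and to the left for Rpl29; a shift of the treated array to the spike-in probes would move all points to the right by the same amount.

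Sequences of ribosomal protein genes have many processed copies in the mouse genome, and 49 of the 71 probes listed a further RefSeq record beside their own. Whether that record belongs to the same gene or to a copy was not checked, so the source of the signals of 34 members was not settled. In the 13 members without such a record, a choice made after the data were seen, 8 were at or below -1.5 in control cells, 12 changed by -0.8 or lower and the median change was -1.58. Whether the probes of these 13 also read copies was not tested.

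The 29 measured mRNAs of small (40S) subunit proteins lay side by side with those of the large subunit. They had medians of -2.25 in control and -4.31 in treated cells for log2 P/FM, with a median change of -2.05, and 25 of 29 were at or below -1.5 in control cells. All 29 were sensitive, from Rps7 at -2.70 to Rps2 at -1.03 and Rps27l at -1.01. A was lower in 28 of the 29 and higher by 0.80 in Rps27l. Rps12 was lower than any large subunit mRNA on both arrays, at -6.24 and -7.36.

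Of the paralogues, a pair lay within the range of the members in treated cells. Rpl36al, a copy of Rpl36a, stood at 0.02 in control cells and -2.07 after thapsigargin, and Rpl22l1 went from -3.198 to -4.58. Rpl7l1 stood above all members, at 1.86 and 1.40. Rpl3l, the muscle form of Rpl3, did not pass the filter. Rpl39l differed from Rpl39 by 3.48 in control cells, at -1.04 against -4.52, and was the highest member in treated cells.

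Mitochondrial large subunit proteins build a separate ribosome. Their 47 mRNAs had a median of 1.34 in control cells with none at or below -1.5. Their median change was -2.30, with 41 of 47 at -0.8 or lower on the unnormalized scale, from -4.34 for Mrpl20 to 0.39 for Mrpl18. Among 48 measured mRNAs listed for 60S assembly, with Rpf1 entered more than once, none was at or below -1.5 in control cells. Their median was 0.88 and 23 changed by -0.8 or lower, close to the 47.0% of all mRNAs. They ran from Npm1, a nucleolar chaperone, at -2.88 to Mdn1, the ATPase that strips assembly factors from the particle, at 2.02. Elongation factors, which act on the finished ribosome, divided in control cells: Eef1b2 (-3.14), Eef1a1 (-2.53), Eef1g (-2.44) and Eef2 (-1.70) lay with the ribosomal proteins, and Eef1d (0.56) and Eef1e1 (0.63), a part of a tRNA synthetase complex, above 0. Their 6 changes ran from -1.80 to -1.08.

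**Figure D5:**
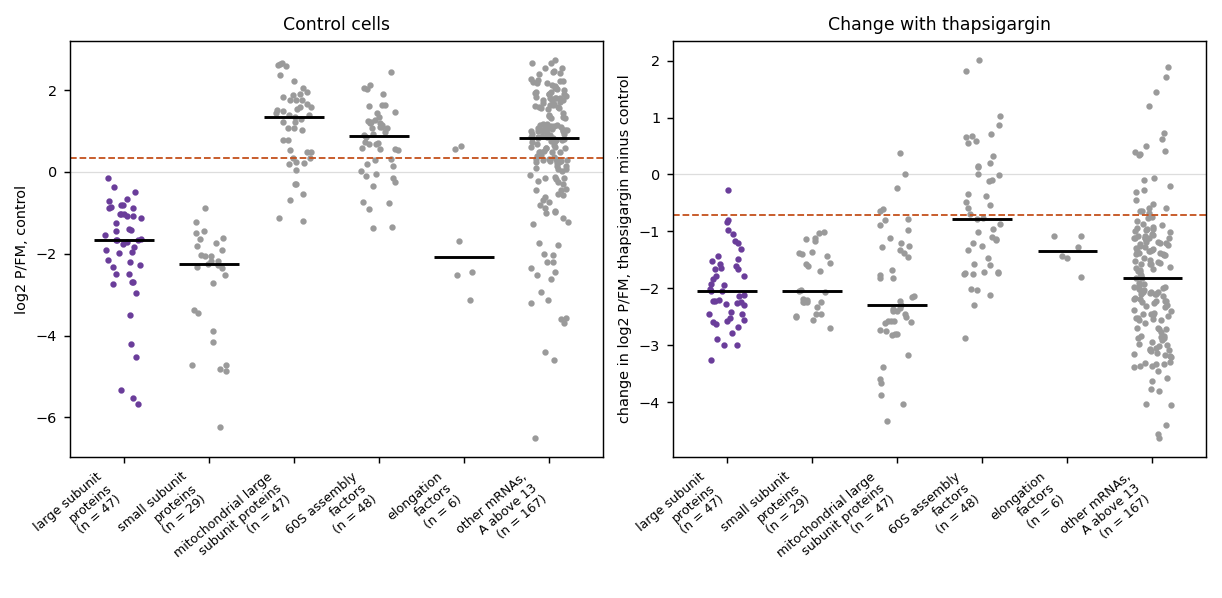
log2 P/FM in control cells (left) and its change with thapsigargin without normalization (right) for large subunit proteins (purple), the comparison lists and other mRNAs with A above 13 (grey); each point is 1 mRNA, bars are medians and the dashed line is the median of all coding mRNAs (0.34 and -0.71). Control medians were -1.66 and -2.25 for both cytoplasmic subunits against 1.34 and 0.88 for mitochondrial proteins and assembly factors, while median changes were -2.05, -2.05, -2.30 and -0.78; each would be higher by the same amount after a shift to the spike-in probes.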

How the data were processed

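RNA was measured on 1 two-colour array per condition, control or thapsigargin, as the labels give them. Per the labels, equal volumes of both fractions entered labelling, and the study states that the RNA proportions of the fractions were kept. Spot and background intensity values and the 0 or 1 flags were, per the file headers, extracted with Feature Extraction 10.7.1.1, with probes placed on mm9. Its dye-normalized intensity values and its log10 ratio (Cy5 over Cy3) are deposited beside them. The authors also deposited log2 ratios (Cy3 over Cy5), not normalized, used as an alternative.

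Mean spot signals less the median local background, with a floor of 0.5, gave log2 P/FM as Cy3 over Cy5. Spots flagged as outliers on either array (295 of 43379) were left out. Spots were averaged by probe, then by transcript, and mRNAs with A above 4.5 on both arrays were kept. No normalization was applied. P and FM signals of a member are geometric means over its probes. Python 3.11.15, R 4.3.3 and limma 3.58.1 (normexp, loess) were used, and the steps were tested on simulated data. Of non-control spots, 42.5% and 44.6% were well above background in P, and 46.3% and 45.4% in FM, in control and treated cells. No member spot was saturated. Start sites came from RefSeq (GRCm38.p6).

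Members, lists and thresholds were chosen with earlier results of these data known. Named were members of the stalk, the 5S particle, the catalytic and tRNA sites and the tunnel, the 5 highest and lowest in each condition, the 5 largest and smallest changes, paralogues, and the extremes of each comparison list. Rpl38, Rpl13a, Rpl30 and probe pairs were added from role lists or after values were seen. Alternatives, in part chosen after seeing the data, were other background corrections, spot summaries, deposited values, scalings, filters and units. The single values of 1 member, which stays in all counts and medians, are not reported here.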

Additional observations from a re-analysis of the deposited data

Results flagged for a closer look

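The array holds further probes that carry the name of a large subunit protein but are tied to no reference transcript, so that the member rule does not take them. For 3 of the names the signal was well above background in both channels on both arrays and above the brightest negative control spot, which had A of 4.13 in control and 4.35 in treated cells. The Rplp0 probe was printed as several spots, of which 7 were used. It had A of 13.9 in control cells, log2 P/FM of -3.08 ± 0.02 (SD of 7 spots) there and -4.17 ± 0.05 in treated cells, and a change of -1.09 ± 0.04. The member Rplp0 read -4.22 and -5.53, lower by more than the SD between its probes, 0.26. The Rpl10 probe had A of 16.2, log2 P/FM of -1.003 and a change of -2.08, against -0.87 and -1.93 for the member. The Rpl30 probe had A of 15.1, -2.53 and -1.73, against -2.70 and -1.78.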

How the results depend on the processing

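The medians in control and treated cells and of the change in A kept their direction under the alternatives run, and the median change did so except on the spike-in scale. The control median lay between -1.70 and -1.65 in 14 alternatives. It was -0.98 with the processed signals or with the log ratio of Feature Extraction, -2.42 with loess and -1.999 with centring. The treated median was -2.47 with either of the Feature Extraction values, -2.72 with loess, -3.57 with centring, -1.41 on the spike-in scale and -3.31 in the 13 members whose probes list no other record. The median change was -1.34 with either of the Feature Extraction values, -0.19 with loess, -1.42 with centring, 0.40 on the spike-in scale and -1.58 in those 13 members. The change in A was -0.97 with processed signals and -0.99 with centring. Members at or below -1.5 in control cells numbered 13 with either of the Feature Extraction values, 43 with loess and 8 among those 13. Members with a change of -0.8 or lower numbered 32 with either of the Feature Extraction values, 4 with loess and 1 on the spike-in scale. The share of all coding mRNAs was 33.3% with processed signals, 32.6% with the log ratio, 27.1% with loess and 0.867% on the spike-in scale. With loess the share of members thus lay below that of all coding mRNAs, the reverse of the unnormalized scale. Sensitive members numbered 12 among those 13, and 68 of 71 when probes were counted. Relative to the median of all coding mRNAs, the median change of members was -2.37 with normexp, -1.87 without background subtraction, -1.33 on the spike-in scale and with centring, -1.04 with processed signals, -0.30 with A above 11 and -0.04 with loess. The cause was not tested.

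Changes of single sensitive members that turned positive on the spike-in scale were Rpl17 0.405, Rpl34 0.173, Rpl38 0.197, Rplp0 1.131, Rpl12 1.404, Rpl18 0.244, Rpl22 0.499, Rpl28 0.23, Rpl29 0.609, Rpl30 0.666, Rpl13a 0.23, Rpl10a 0.399, Rpl7 1.464, Rpl9 0.152, Rpl27a 1.277, Rpl7a 0.785, Rpl3 0.803, Rpl5 0.926, Rpl21 0.843, Rpl36a 0.315, Rpl23 0.96, Rpl4 1.005, Rpl24 0.0352, Rpl15 0.182, Rpl11 0.33, Rpl39 1.250, Rpl37 0.653, Rpl39l 1.603, Rpl10 0.518, Rpl31 0.863, Rpl23a 0.779. With loess they were Rpl38 0.0171, Rplp0 0.796, Rpl12 1.1003, Rpl30 0.206, Rpl7 1.081, Rpl27a 0.366, Rpl7a 0.311, Rpl3 0.269, Rpl5 0.61, Rpl23 0.168, Rpl4 0.0662, Rpl11 0.0284, Rpl39 0.878, Rpl39l 0.375, Rpl10 0.151, Rpl23a 0.282. With either of the Feature Extraction values they were Rpl27a 0.265, Rpl39l 0.135. The members outside the sensitive class also changed sign. Rpl41 read 2.18 on the spike-in scale, 1.88 with loess, 0.81 with either of the Feature Extraction values and 0.36 with centring. Rplp1 read 1.65 on the spike-in scale, 1.28 with loess and -0.09 with either of the Feature Extraction values.

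The choice of the 13 members and the set without Rpl39l were added after seeing the data. Without Rpl39l the medians were -1.67 in control cells, -3.87 in treated cells and -2.08 for the change. Coding probes alone were not run, since no protein sequences were used here. No paired analysis was possible because each condition is 1 array. Pooled preparations leave the spread between cultures unmeasured, and dim probes limit the precision of Rpl22, Rpl21, Rpl23, Rpl31 and Rpl37, whose changes had SDs between probes of 1.25, 0.93, 0.69, 0.55 and 0.38.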
